A study of Homo sapiens with 9 samples.

Results

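The classical protein tyrosine phosphatases are the PTPN and the PTPR genes. PTPN genes encode proteins without a membrane-spanning receptor part (with a few exceptions in name), and PTPR genes encode receptor-type proteins. They were chosen by gene symbol, not by any measured value, and comprise 37 of the 62700 genes counted. RNA was sequenced from 9 libraries of 293T cells, a line derived from human embryonic kidney, in 3 groups of 3. The cells had been transfected 48 h earlier with an empty vector, with HA-CIC::DUX4, or with HA-CIC(ex20)::NUTM1(ex6), called CIC::NUTM1 from here on. Both fusions carry an HA epitope tag and were expressed from plasmids in 1 cell line, on top of the cells' own genes, so each library averages transfected and untransfected cells. More cells with an RNA and more RNA per cell therefore cannot be told apart. Per the labels, separate replicates were transfected on separate days. The question addressed here is how PTPN9, a gene listed among the targets of CIC, compared with all other classical tyrosine phosphatases.

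Tyrosine phosphatases remove phosphate from tyrosine residues and so oppose tyrosine kinases; some, such as PTPN1, end signals from receptors, and others, such as PTPN11, carry them forward. CIC (Capicua) is a repressor with an HMG box that binds short octamers in promoters and enhancers of genes of the receptor tyrosine kinase and MAP kinase pathway. In CIC fusion sarcomas the fusion to DUX4 or NUTM1 is known to turn this repressor into an activator of CIC targets. PTPN9, also called MEG2, is a non-receptor enzyme with a lipid-binding Sec14 domain that sits on secretory vesicles and acts on the vesicle fusion factor NSF.

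The promoters of PTPN9 and PTPN1 are printed because these were the 2 phosphatases at 1 CPM or more in empty vector that rose with both fusions, and they differ in the letters that CIC is known to bind. Sequences are from RefSeq on GRCh38.p14. The 250 bases of PTPN9 end just before the RefSeq start, and those of PTPN1, 188 bases, stop earlier, just before the start in GENCODE 29, so the lengths differ. Capitals mark the octamers TCAATGAA, TCAATGGA, TGAATGAA and TGAATGGA, searched on both strands, and the hexamers TCAATG and TGAATG, which lie within them.
PTPN9, chr15:75579316-75579565, minus strand: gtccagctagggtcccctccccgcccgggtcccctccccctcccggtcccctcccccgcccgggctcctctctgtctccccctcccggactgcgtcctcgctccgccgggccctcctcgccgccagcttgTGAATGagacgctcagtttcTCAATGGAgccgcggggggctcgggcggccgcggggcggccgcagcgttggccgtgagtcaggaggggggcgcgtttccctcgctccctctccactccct
PTPN1, chr20:50510133-50510320, plus strand: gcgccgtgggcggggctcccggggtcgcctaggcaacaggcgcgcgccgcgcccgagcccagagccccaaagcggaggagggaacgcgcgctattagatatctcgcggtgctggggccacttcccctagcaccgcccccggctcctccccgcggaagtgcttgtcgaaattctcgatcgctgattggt
The PTPN9 window held the octamer TCAATGGA at bases 151 to 158 and the hexamer TGAATG at bases 131 to 136, counted from the first base printed, in a stretch with 74.8% G and C. The PTPN1 window held neither over its full 300 bases. Windows of 300 bases (250 before and 50 after the start) were found for 32 of the 37 phosphatases, 51 windows in all. Among these genes, PTPN9 alone had an octamer, and PTPN2, PTPN3, PTPRD and PTPRE had a single hexamer. Across all 35116 windows of the table, 3.77% held an octamer, 18.0% a hexamer and 2.97% at least 2 hexamers. Counted by gene, 4.62% of 27305 genes had an octamer, so 1 among 32 genes is not more than that share. Of the 446 tested genes with an octamer, 22.9% were called higher with CIC::DUX4 and 27.8% with CIC::NUTM1, beside 7.28% and 12.3% of the 12204 tested genes with any window. These matches describe letters only; binding was not measured, and no letters in a window says nothing about sites elsewhere.

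Library depth ran from 16970771 to 33655445 counts. Levels are CPM, counts scaled to the library's total with TMM factors between libraries; differences are log2 fold changes from edgeR's quasi-likelihood fit, and a gene was called where its Benjamini-Hochberg adjusted p over all 17576 tested genes was under 0.05. Of the 7 HEK293T markers fixed for the check of the cell type, all had counts in every group, with summed levels of 1310 to 1510 CPM in empty vector, 1220 to 1270 with CIC::DUX4 and 1220 to 1350 with CIC::NUTM1. CIC::NUTM1 replicate 2 was the lowest of its group for 71.7% of the 2018 genes called higher with that fusion, and for 8 of the 11 phosphatases among them. CIC::DUX4 replicate 1 was the highest of its group for 75.3% of the 1224 genes that rose with CIC::DUX4, and for 4 of the 6 phosphatases. Among the HEK293T markers KRT8 rose 2.47-fold with CIC::DUX4, VIM rose 1.24-fold with CIC::NUTM1, and NEFM (1.57-fold and 1.63-fold) and NEFL (1.38-fold and 1.19-fold) fell with both fusions. Of 4 fibroblast markers, LUM was called higher with both fusions (2.06-fold and 2.72-fold), and with CIC::NUTM1 DCN was called higher and COL1A1 lower, while the summed level was 33.2 to 38.3 CPM in all groups. DCN was below the filter level (about 0.486 CPM) in all empty vector libraries. It was tested through the fusion groups and could hardly be called lower. Per the labels, the replicates of a group were transfected on separate days, and the labels name no other batch that goes with these libraries. The part of the day, of this order and of these markers in the results was not tested.

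In cells with empty vector the phosphatase RNA was spread over a few abundant genes. Per kilobase of merged exons, PTPN11 (SHP2, the enzyme that carries growth factor signals to RAS) had the highest mean level, 40.6 CPM per kb. It was followed by PTPRF (LAR, a receptor of the axon guidance type) at 32.8, PTPN1 (PTP1B, which dephosphorylates the insulin receptor) at 28.0, PTPRS at 20.1 and PTPRU at 19.7 CPM per kb. PTPN9 ranked 12 of 37 with 5.39 ± 0.077 CPM per kb (SD, n = 3). With CIC::DUX4 it ranked 8 with 10.6 ± 0.814 CPM per kb, and with CIC::NUTM1 it ranked 7 with 14.6 ± 1.60 CPM per kb. PTPN1 moved from rank 3 to rank 1 in both fusion groups, at 53.1 and 60.2 CPM per kb, above PTPN11 at 37.8 and 37.5. PTPRF, PTPRS and PTPRU stayed within ranks 2 to 6 in all groups.

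The summed level of the 37 genes was 232 ± 10.4 CPM per kb in empty vector, 250 ± 8.08 with CIC::DUX4 and 265 ± 11.2 with CIC::NUTM1 (SD, n = 3). PTPN9 made up 2.33 ± 0.103% of this sum in empty vector, 4.26 ± 0.215% with CIC::DUX4 and 5.51 ± 0.422% with CIC::NUTM1. The share of PTPN1 was 12 ± 0.115%, 21.2 ± 2.23% and 22.6 ± 2.84% in the same order. Without these 2 genes the sum of the other 35 was 198 ± 8.96, 186 ± 1.0 and 190 ± 7.0 CPM per kb, so the larger sums in the fusion groups lay in PTPN1 and PTPN9. The shares of PTPN9 and of PTPN1 did not overlap between empty vector and either fusion group, while no test was made of these sums.

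**Figure D1:**
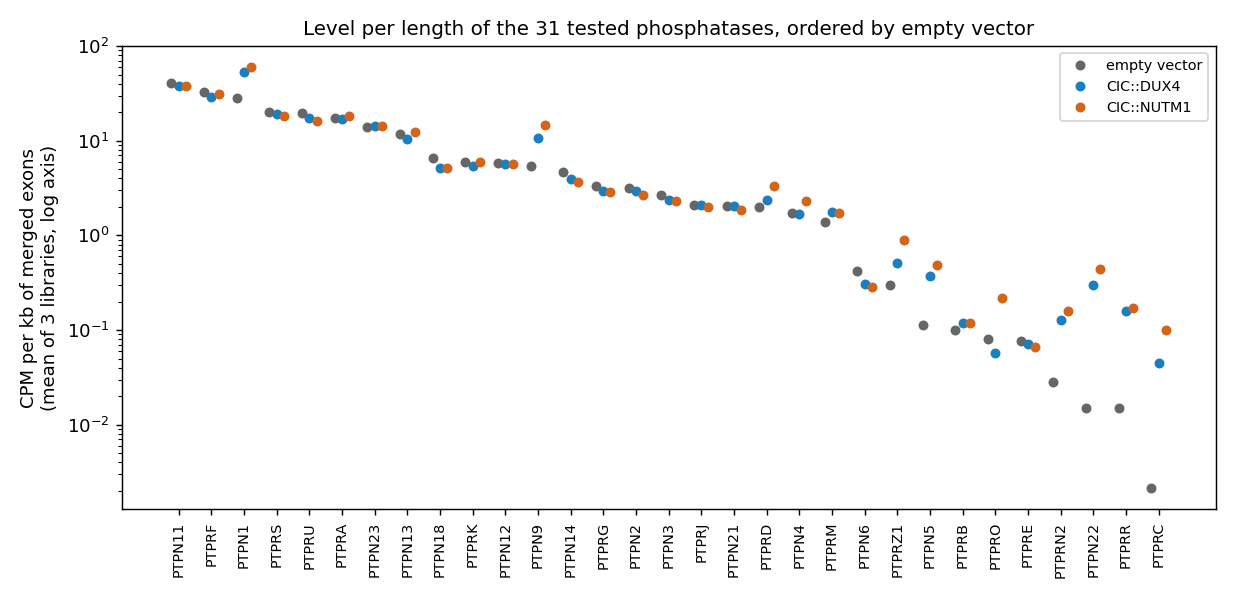
Level of the 31 tested phosphatases, ordered by empty vector, in CPM per kilobase of merged exons on a log axis, with 1 point for the mean of each group of 3 libraries. PTPN1 lies highest in both fusion groups, and PTPN9 lies at 5.39 CPM per kb in empty vector, 10.6 with CIC::DUX4 and 14.6 with CIC::NUTM1.

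PTPN9 (ENSG00000169410, chr15:75463251-75579289 on the minus strand, GRCh38) rose with both fusions and rose further with CIC::NUTM1. Its level in the 3 empty vector libraries was 46.3, 47.3 and 46.0 CPM. It was 99.0, 84.9 and 91.3 CPM with CIC::DUX4 and 130.5, 111 and 137 CPM with CIC::NUTM1. The 3 groups did not overlap: every CIC::DUX4 library lay above every empty vector library, and every CIC::NUTM1 library above every CIC::DUX4 library. The log2 fold change was 0.98 ± 0.08 (SE) with CIC::DUX4 (edgeR adjusted p = 5.19e-09), which is 1.97-fold. With CIC::NUTM1 it was 1.44 ± 0.08 (edgeR adjusted p = 6.18e-12), which is 2.71-fold. Between the fusions the log2 difference was 0.46 ± 0.08 (edgeR adjusted p = 0.000493), 1.37-fold higher with CIC::NUTM1. By adjusted p PTPN9 ranked 52 of 17576 genes with CIC::DUX4 and 11 with CIC::NUTM1, while by size of the log2 fold change it ranked 1133 and 834. Its position near the top by adjusted p thus came with a moderate change. Its levels lay close together in empty vector (SD 0.664 CPM). They lay further apart in the CIC::DUX4 group (SD 7.03) and in the CIC::NUTM1 group (SD 13.8). An unnamed gene on the same strand, ENSG00000260269, overlaps PTPN9 exons and held 30, 32 and 18 reads in the 3 groups, against 3573, 5921 and 7717 for PTPN9.

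The call for PTPN9 held in all 45 alternative analyses over the 3 comparisons. Leaving out each library in turn gave log2 fold changes of 0.92 to 1.03 with CIC::DUX4, 1.35 to 1.52 with CIC::NUTM1 and 0.38 to 0.54 between the fusions.

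Set against the rest of its family, PTPN9 was among a minority. Of the 37 phosphatases 31 were tested, and 25 of these reached the level required by the filter, about 0.486 CPM, in all 3 empty vector libraries. The other 6 (PTPN22, PTPN5, PTPRC, PTPRN2, PTPRO and PTPRR) were below it in at least 1 empty vector library and entered the test through the fusion groups, so that their calls could hardly go the other way. With CIC::DUX4, 6 of the 31 were called higher (19.4%) and 1 lower (3.23%), while 8.24% of all tested genes were called, 6.96% higher and 1.27% lower. With CIC::NUTM1, 11 were higher (35.5%) and 3 lower (9.68%), against 15.3% of all tested genes, 11.5% higher and 3.83% lower. With CIC::NUTM1 the split over all genes, 2018 higher and 673 lower, became 1783 and 1138 when libraries were scaled by their totals and 1807 and 1124 with upper quartile factors. The 25 gave 2 higher and 1 lower with CIC::DUX4 (8.0% and 4.0%), and 5 higher and 3 lower with CIC::NUTM1 (20.0% and 12%). Over all tested genes with a mean of 1 CPM or more in empty vector, 5.39% were called higher and 1.55% lower with CIC::DUX4. With CIC::NUTM1 these shares were 10.4% and 4.65%. The counts among the 25 with CIC::DUX4 are too small to be set firmly against such shares. Among the 31, the median log2 fold change was -0.03 for CIC::DUX4 and 0.03 for CIC::NUTM1, beside -0.001 over all tested genes in each. Levels in CIC::DUX4 and empty vector libraries were fully separate for 8 of the 31 on the higher side and 7 on the lower side, and for 25.7% of all tested genes (14.8% higher and 11% lower). With CIC::NUTM1 this held for 12 higher and 6 lower, and for 31.1% of all tested genes (18.2% and 12.9%). Of the 25, 3 were fully separate on the higher side and 7 on the lower with CIC::DUX4, and 6 and 6 with CIC::NUTM1. The count of genes called lower moved with single libraries: with CIC::DUX4 it was 0 without empty vector replicate 3 or CIC::DUX4 replicate 1 or 2, and 2 without CIC::DUX4 replicate 3, and with CIC::NUTM1 it was 1 without empty vector replicate 1 or 3 or CIC::NUTM1 replicate 1. Called higher with both fusions were PTPN1, PTPN5, PTPN9, PTPN22, PTPRC and PTPRR, and called lower with both was PTPN18. Both comparisons share the empty vector libraries.

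**Figure D2:**
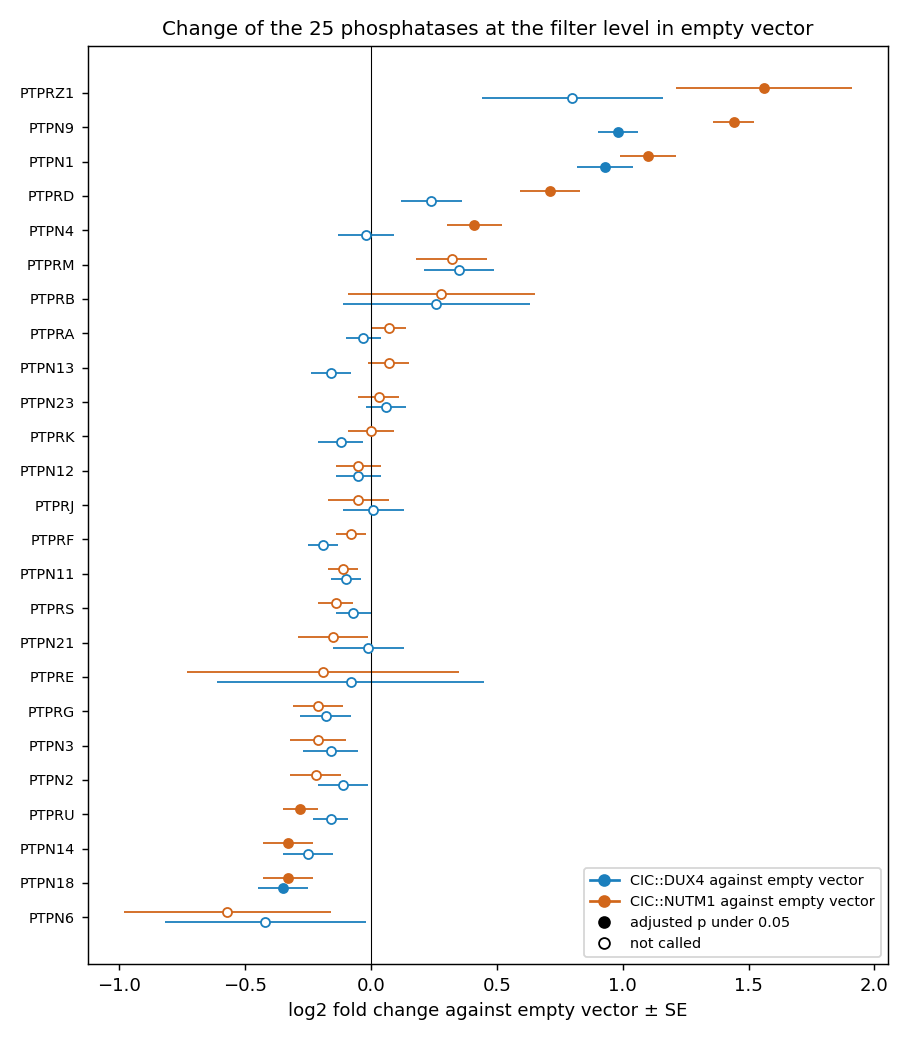
Log2 fold change with its standard error for the tested phosphatases at the filter level in all empty vector libraries, for CIC::DUX4 and CIC::NUTM1 against empty vector; filled symbols were called. PTPN9 (0.98 and 1.44) and PTPN1 (0.93 and 1.10) lie to the right in both comparisons, as does PTPRZ1 with CIC::NUTM1 (1.56 with a wider error of 0.35), and most other genes lie near 0.

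PTPN1 (ENSG00000196396, chr20:50510321-50585241 on the plus strand), which acts on insulin and leptin receptor signalling from the endoplasmic reticulum, was the other abundant phosphatase that rose with both fusions. Its levels were 108, 115 and 117 CPM in empty vector, 249, 196 and 199 with CIC::DUX4 and 261, 201 and 267 with CIC::NUTM1. All 6 fusion libraries lay above all 3 empty vector libraries, and the fusion groups overlapped. The log2 fold change was 0.93 ± 0.11 with CIC::DUX4 (edgeR adjusted p = 7.25e-05; 1.90-fold) and 1.10 ± 0.11 with CIC::NUTM1 (edgeR adjusted p = 7.8e-06; 2.15-fold). Between the fusions it was 0.18 ± 0.11 (edgeR adjusted p = 0.449), a difference not resolved at this spread, although it was called without CIC::NUTM1 replicate 2. Its nearest relative PTPN2 (TC-PTP, which dephosphorylates JAK kinases and STATs) had levels of 27.5 ± 1.43, 25.4 ± 0.466 and 23.5 ± 1.39 CPM in the 3 groups and was not called in any comparison (edgeR adjusted p from 0.155 to 0.635).

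In the PEST group, whose members have proline-rich tails that bind adaptors, the 3 genes went different ways. PTPN18, which dephosphorylates HER2, fell with both fusions. It measured 38.2, 35.5 and 39.5 CPM in empty vector, 30.4, 27.2 and 31.2 with CIC::DUX4 and 29.4, 34.3 and 26.3 with CIC::NUTM1. Every fusion library was below every empty vector library, with log2 fold changes of -0.35 ± 0.10 (edgeR adjusted p = 0.0367) and -0.33 ± 0.10 (edgeR adjusted p = 0.0341). These calls are near the threshold. With CIC::DUX4 the call was lost without empty vector replicate 1 or 3 (adjusted p = 0.0995 and 0.177) and without CIC::DUX4 replicate 1 or 2 (0.0914 and 0.171). With CIC::NUTM1 it was lost without empty vector replicate 1 or 3 (0.0919 and 0.143) and without CIC::NUTM1 replicate 1 or 3 (0.0851 and 0.144). PTPN12, which acts on focal adhesion proteins, stayed at 32.5 ± 1.88, 31.5 ± 0.722 and 31.5 ± 1.94 CPM (edgeR adjusted p of at least 0.808). PTPN22, the gene of this group known from lymphocytes, rose from near 0 and is described with the genes at low levels.

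Among the phosphatases with a FERM domain, which links them to the cell membrane and cytoskeleton, PTPN4 and PTPN14 changed with CIC::NUTM1. PTPN4, which binds glutamate receptors through a PDZ domain, measured 20.3, 23.3 and 21.0 CPM in empty vector, 23.8, 19.9 and 20.0 with CIC::DUX4 and 31, 26.4 and 29.1 with CIC::NUTM1. The CIC::NUTM1 libraries lay above all 6 others. Its log2 fold change was 0.41 ± 0.11 with CIC::NUTM1 (edgeR adjusted p = 0.0112; 1.34-fold) and -0.02 ± 0.11 with CIC::DUX4 (adjusted p = 0.959), and 0.43 ± 0.11 between the fusions (edgeR adjusted p = 0.0172). The first call was lost without empty vector replicate 1 or 3 (0.0601 and 0.0562) or CIC::NUTM1 replicate 1 (0.0583). The call between the fusions was lost without CIC::NUTM1 replicate 1 or 3 (0.0755 and 0.0746) or CIC::DUX4 replicate 2 or 3 (0.101 and 0.0803). PTPN14, which binds the transcriptional coactivator YAP, had levels of 88.0, 92.2 and 81.5 CPM in empty vector, 71.3, 73.3 and 75.4 with CIC::DUX4 and 55.6, 72.9 and 79.1 with CIC::NUTM1. It fell with CIC::NUTM1 (log2 fold change -0.33 ± 0.10, edgeR adjusted p = 0.0188); that call was lost without empty vector replicate 1 or 2 (0.0553 and 0.0853) or CIC::NUTM1 replicate 1 (0.106). With CIC::DUX4 its log2 fold change was -0.25 ± 0.10 (edgeR adjusted p = 0.123), and the 3 libraries also lay below those of empty vector. PTPN3 and PTPN21 were not called in any comparison, with means of 23.0 to 26.6 CPM and 13.7 to 15.2 CPM over the groups.

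**Figure D3:**
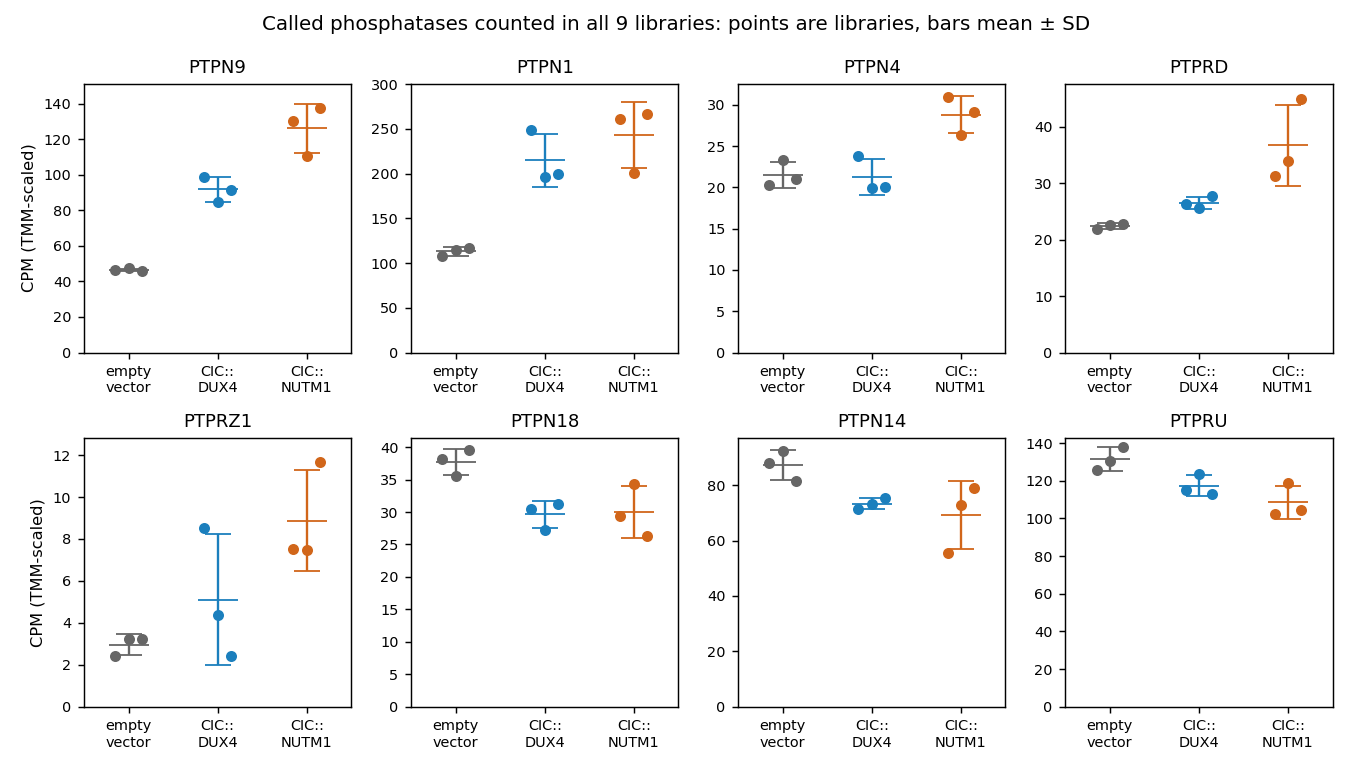
CPM in each library for the phosphatases at the filter level in empty vector that were called in at least 1 comparison, on a separate axis per gene, with points for the 3 libraries of each group and bars for the mean ± SD. For PTPN9 the 3 groups are separate; for PTPN1 the fusion groups overlap each other and lie above empty vector; for PTPN18 both fusion groups lie below it.

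Among the receptor-type genes at 1 CPM or more in empty vector, PTPRD and PTPRZ1 rose and PTPRU fell with CIC::NUTM1. PTPRD, a LAR-type receptor that organises synapses through SLITRK and IL1RAP partners, measured 21.9, 22.6 and 22.8 CPM in empty vector, 26.4, 25.6 and 27.7 with CIC::DUX4 and 31.4, 34.0 and 44.9 with CIC::NUTM1. The 3 groups did not overlap. Its log2 fold change was 0.71 ± 0.12 with CIC::NUTM1 (edgeR adjusted p = 5.35e-05; 1.64-fold) and 0.24 ± 0.12 with CIC::DUX4 (edgeR adjusted p = 0.253). The difference between the fusions was 0.47 ± 0.11 (edgeR adjusted p = 0.011). Without CIC::NUTM1 replicate 3 it was 0.29 (adjusted p = 0.191), and without CIC::DUX4 replicate 2 it was 0.44 (0.0597). The other LAR-type genes were not called: PTPRF measured 351 ± 28.4, 308 ± 17.3 and 331 ± 15 CPM (lowest edgeR adjusted p = 0.0699, with CIC::DUX4, at a log2 fold change of -0.19), and PTPRS 173 ± 11.1, 165 ± 7.26 and 156 ± 7.24 CPM. PTPRF was called lower with CIC::DUX4 with the replicate number as a block (adjusted p = 0.0313), with no filter (0.0266), in a fit of only these groups (0.0347), and without empty vector replicate 1 (0.0253) or CIC::DUX4 replicate 3 (0.0305).

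PTPRZ1, a receptor for pleiotrophin best known from glia, measured 2.40, 3.25 and 3.25 CPM in empty vector, 8.54, 4.36 and 2.41 with CIC::DUX4 and 7.50, 7.46 and 11.7 with CIC::NUTM1. The CIC::NUTM1 libraries lay above those of empty vector (log2 fold change 1.56 ± 0.35, edgeR adjusted p = 0.00641; 2.99-fold). The CIC::DUX4 libraries ranged from the empty vector level to the CIC::NUTM1 level (0.80 ± 0.36, edgeR adjusted p = 0.236). PTPRG, which shares its carbonic anhydrase-like domain, was not called, at 49.0 ± 2.97, 43.3 ± 2.24 and 42.2 ± 6.69 CPM. PTPRU, a receptor of the MAM type that is engaged in cell contacts, had 126, 130.4 and 138 CPM in empty vector, 115, 124 and 113 with CIC::DUX4 and 103, 119 and 104 with CIC::NUTM1. It fell with CIC::NUTM1 (log2 fold change -0.28 ± 0.07, edgeR adjusted p = 0.00804), a call lost without empty vector replicate 3 (0.0639), and measured -0.16 ± 0.07 with CIC::DUX4 (edgeR adjusted p = 0.194). Its relatives PTPRK and PTPRM were not called. PTPRM measured 13.7 ± 0.715, 17.3 ± 2.94 and 17.1 ± 1.89 CPM, with log2 fold changes of 0.35 ± 0.14 (edgeR adjusted p = 0.147) and 0.32 ± 0.14 (0.127).

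A further 6 phosphatases rose from low levels with one or both fusions. Among all 3124 tested genes with a mean under 1 CPM in empty vector, 14.2% were called higher with CIC::DUX4. For CIC::NUTM1 the share was 16.5%, and in such genes a fall could hardly be called. Of the 7 phosphatases at this level, 4 were called higher with CIC::DUX4 and 6 with CIC::NUTM1; PTPRE was not called. For genes with few reads in empty vector, ratios are pooled over the 3 libraries with 95% exact intervals that cover counting error only.

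PTPN5 and PTPRR carry a kinase interaction motif and dephosphorylate the MAP kinases ERK and p38; both rose with both fusions. PTPN5 (STEP, a neuronal enzyme) measured 0.458, 0.586 and 0.842 CPM in empty vector, 2.02, 2.06 and 2.06 with CIC::DUX4 and 2.52, 2.14 and 3.32 with CIC::NUTM1. The fusion libraries all lay above those of empty vector, with log2 fold changes of 1.68 ± 0.37 (edgeR adjusted p = 0.00309; 3.26-fold) and 2.05 ± 0.37 (edgeR adjusted p = 0.000187; 4.23-fold). PTPRR gave 4, 0 and 0 reads in empty vector, 22, 25 and 7 with CIC::DUX4 and 24, 14 and 13 with CIC::NUTM1. The pooled ratio was 16.1 (5.95 to 61.3) with CIC::DUX4 (edgeR adjusted p = 0.00881) and 15.7 (5.78 to 59.9) with CIC::NUTM1 (edgeR adjusted p = 0.00481). With CIC::DUX4 the call for PTPRR was lost without empty vector replicate 2 or 3 (0.0811 and 0.0756) or CIC::DUX4 replicate 2 (0.0591). Without empty vector replicate 1, which held all 4 control reads, no ratio could be formed; without empty vector replicate 2 the ratios were 8.94 and 8.71. The last gene with this motif, PTPN7 (HePTP, of blood cells), was below the filter with 0, 0 and 6 reads in empty vector, 0 in all CIC::DUX4 libraries and 1, 6 and 0 with CIC::NUTM1.

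PTPN22 and PTPRC encode the lymphocyte phosphatases LYP and CD45, which set the threshold of antigen receptor signalling. PTPN22 gave 3, 1 and 0 reads in empty vector, 56, 29 and 9 with CIC::DUX4 and 43, 32 and 43 with CIC::NUTM1. All fusion libraries lay above those of empty vector, with pooled ratios of 28.1 (10.6 to 105; edgeR adjusted p = 0.000169) and 36.4 (13.8 to 136; edgeR adjusted p = 1.86e-05). These rest on 4 control reads: without empty vector replicate 1 the ratios were 86.7 and 112, and without replicate 3 they were 18.9 and 24.5. PTPRC gave 0, 2 and 0 reads in empty vector, 24, 3 and 3 with CIC::DUX4 and 24, 16 and 13 with CIC::NUTM1. Its pooled ratios were 17.9 (4.55 to 155; edgeR adjusted p = 0.0242) and 32.7 (8.61 to 277; edgeR adjusted p = 0.00118). Most of its reads with CIC::DUX4 came from replicate 1; without it the ratio was 6.07 and the adjusted p 0.422, and without empty vector replicate 1 or 3 the adjusted p was 0.0877 or 0.127. The call with CIC::DUX4 was also lost with the replicate number as a block (0.0506) and by limma-trend (0.098). Both control reads came from empty vector replicate 2, and no ratio could be formed without it. In absolute terms both stayed low, at 1.35 ± 0.804 and 2.01 ± 0.703 CPM for PTPN22 and 0.412 ± 0.436 and 0.909 ± 0.461 CPM for PTPRC with CIC::DUX4 and CIC::NUTM1. PTPN6 (SHP-1), another enzyme of blood cells, went without a call at 2.10 ± 0.423, 1.55 ± 0.337 and 1.44 ± 0.874 CPM.

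Of 4 blood markers (CD3E, CD14, HBB and CD2), HBB and CD2 were at 0 in all 9 libraries, and 1, 2 and 1 of the 4 had a count in the 3 groups. Their summed level was 0.0572 to 0.293 CPM in empty vector, 0.144 to 0.353 with CIC::DUX4 and 0.995 to 1.55 with CIC::NUTM1. CD14, a marker of monocytes, was at 0.143 ± 0.13 CPM in empty vector and rose to 1.19 ± 0.316 CPM with CIC::NUTM1 (log2 fold change 2.86, edgeR adjusted p = 0.0043). It was below the filter level in all empty vector and CIC::DUX4 libraries and was tested through CIC::NUTM1. Its call could thus hardly go the other way. The part of these markers in the results for PTPN22 and PTPRC was not tested.

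PTPRO and PTPRN2 were called higher with CIC::NUTM1. PTPRO (GLEPP1, known from the podocytes of the kidney) gave 14, 12 and 16 reads in empty vector, 10, 14 and 4 with CIC::DUX4 and 24, 43 and 36 with CIC::NUTM1. In CPM these were 0.801, 0.351 and 0.641, then 0.381, 0.671 and 0.235, then 1.44, 1.65 and 1.87, so the CIC::NUTM1 libraries lay above all others. The log2 fold change was 1.5 ± 0.50 with CIC::NUTM1 (edgeR adjusted p = 0.0443; 2.76-fold) and -0.42 ± 0.55 with CIC::DUX4 (edgeR adjusted p = 0.756). Between the fusions it was 1.92 ± 0.52 (edgeR adjusted p = 0.0245; 3.85-fold). The call against empty vector was lost without each of the 6 libraries of its groups (empty vector replicates 1 to 3: 0.0544, 0.181 and 0.0943; CIC::NUTM1 replicates 1 to 3: 0.0772, 0.0901 and 0.141). It was also lost with DESeq2 (0.0574), with no filter (0.0664) and with the replicate number as a block (0.0602). That between the fusions was lost without CIC::NUTM1 replicate 2 or 3 (0.0595 and 0.104) or CIC::DUX4 replicate 1 or 3 (0.0901 and 0.105). PTPRN2 (phogrin, a protein of secretory granules) gave 0, 7 and 5 reads in empty vector, 11, 5 and 20 with CIC::DUX4 and 11, 20 and 17 with CIC::NUTM1. Its pooled ratio with CIC::NUTM1 was 4.93 (2.58 to 10.2; edgeR adjusted p = 0.0377). That call, too, was lost without each of the 6 libraries (empty vector replicates 1 to 3: 0.148, 0.075 and 0.084; CIC::NUTM1 replicates 1 to 3: 0.071, 0.0703 and 0.114). With CIC::DUX4 the ratio was 3.58 (1.82 to 7.57; edgeR adjusted p = 0.143).

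**Figure D4:**
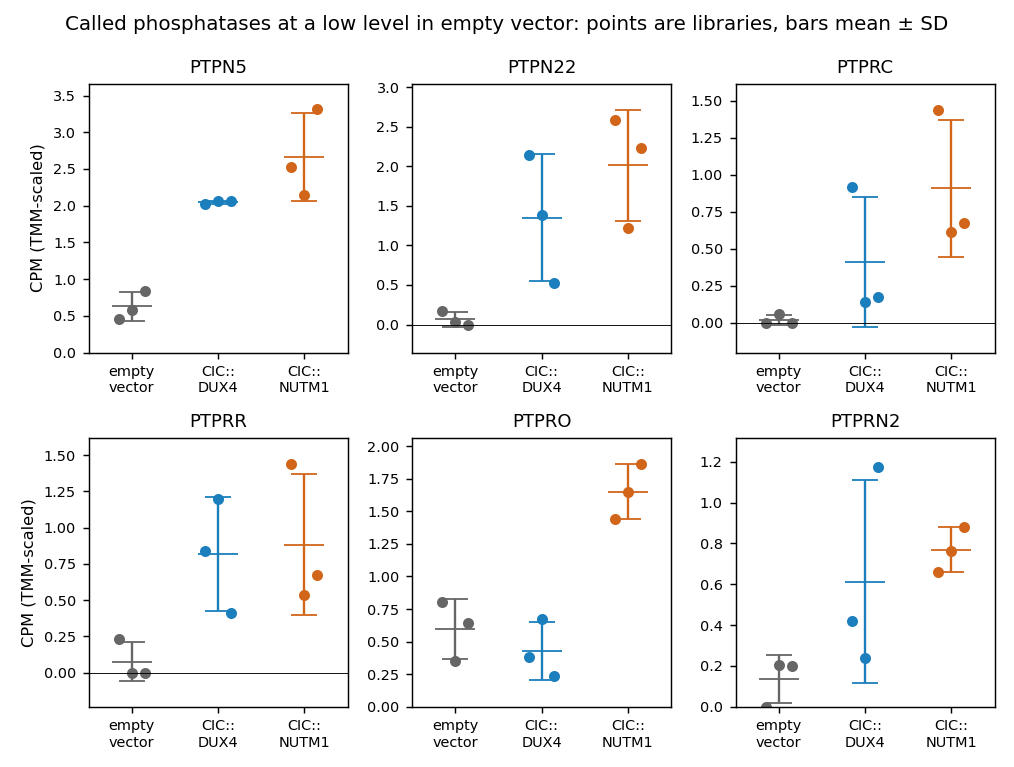
CPM in each library for the 6 phosphatases at a low level in empty vector that were called in at least 1 comparison, on a separate axis per gene, with points for the 3 libraries of each group and bars for the mean ± SD. PTPN22, PTPN5, PTPRC and PTPRR are higher in both fusion groups, while PTPRO is higher with CIC::NUTM1 and at the empty vector level with CIC::DUX4.

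The 17 tested phosphatases without a call in any comparison include most of the abundant ones. PTPN11 measured 275, 298 and 281 CPM in empty vector, 276, 269 and 251 with CIC::DUX4 and 247, 274 and 268 with CIC::NUTM1, with log2 fold changes of -0.10 ± 0.06 (edgeR adjusted p = 0.386) and -0.11 ± 0.06 (0.231). It overlaps the abundant gene RPL6 on the other strand, and whether strand was used in counting is not given in the sources used here. PTPN23 (HD-PTP, of endosomal sorting) measured 82.9 ± 6.10, 86.6 ± 4.52 and 84.8 ± 5.21 CPM, PTPN13 (a large PDZ protein that binds FAS) 111 ± 11.3, 99.5 ± 5.97 and 117 ± 11.7, and PTPRA (an activator of SRC) 77.6 ± 4.65, 76.1 ± 2.29 and 81.4 ± 3.13. Over the 17 genes the log2 fold changes ran from -0.42 to 0.35 with CIC::DUX4 and from -0.57 to 0.32 with CIC::NUTM1, with edgeR adjusted p-values from 0.0699 to 0.985 and from 0.127 to 0.982. The lowest in both belonged to PTPN6. Exons of PTPRA overlap those of VPS16 on the same strand. VPS16 held 3649, 3314 and 2898 reads in the 3 groups, against 6012, 4865 and 5026 for PTPRA. The part of this overlap in the level of PTPRA was not tested. For PTPN11, PTPRF, PTPRS, PTPRA, PTPN13 and PTPN23 the SE was 0.06 to 0.08, beside log2 changes of 0.98 and 1.44 for PTPN9.

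The untested 6 had few reads. PTPRT had 0 in all 9 libraries, where 3 counts would be 0.0878 to 0.18 CPM. PTPRN gave 0 in empty vector and with CIC::NUTM1, and 1, 0 and 1 with CIC::DUX4. PTPRQ, of the inner ear, gave 0, 4 and 0 in empty vector, 4, 4 and 3 with CIC::DUX4 and 0 in all CIC::NUTM1 libraries. PTPRH gave 1 to 11 reads in empty vector, 3 to 17 with CIC::DUX4 and 2 to 6 with CIC::NUTM1. PTPN20 gave 0, 16 and 5 in empty vector, 4, 1 and 0 with CIC::DUX4 and 8, 8 and 9 with CIC::NUTM1; a near-identical copy, PTPN20CP, makes these counts uncertain.

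Directly between the fusions, 4 of the 31 tested phosphatases were higher with CIC::NUTM1 (12.9%) and 0 lower, while 6.61% of all tested genes were called, 4.97% higher and 1.64% lower. The fusion groups were fully separate for 6 of the 31, all higher with CIC::NUTM1, and for 22% of all tested genes (12.6% higher and 9.36% lower). The 4 called were PTPN9, PTPN4, PTPRD and PTPRO, and PTPN9 was the only one of the 4 called against empty vector with both fusions. PTPRO was at the filter level in 1 CIC::DUX4 library and in all 3 CIC::NUTM1 libraries, so its call could hardly go the other way. Among the 25 at the filter level in all empty vector libraries, 3 were called higher with CIC::NUTM1 and 0 lower. The count of all tested phosphatases called higher was 1 without CIC::NUTM1 replicate 3 and 2 without CIC::DUX4 replicate 2 or 3. Over all genes 874 were higher and 288 lower, and 695 and 437 when scaled by library totals. At an unadjusted edgeR p under 0.05, 6 of the 31 differed, beside 18.2% of all tested genes. Against empty vector it was 14 of the 31 with CIC::DUX4 (beside 19.1%) and 18 with CIC::NUTM1 (beside 26.9%). Of the 25 at the filter level in all empty vector libraries, it was 9 and 12. PTPN1, PTPN5, PTPN22, PTPRC and PTPRR, called with both fusions, were not called between them; their log2 differences were 0.18 ± 0.11, 0.37 ± 0.33, 0.53 ± 0.51, 1.03 ± 0.71 and 0.07 ± 0.67, and the wide errors of the last 4 leave sizeable differences unresolved.

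Phosphatases of other families that act on tyrosine were also called, from a list of 22 genes of which 19 were tested. With CIC::DUX4, 5 were higher (26.3%, beside 6.96% of all tested genes: CDC25A, EYA1, CDC14A, CDC14B and PTPDC1) and 1, PTP4A3, was lower (5.26%, beside 1.27%), and the median log2 fold change was 0.05. With CIC::NUTM1, 10 were higher (52.6%, beside 11.5% of all tested genes) and 0 lower (beside 3.83%), with a median of 0.28. EYA1, which dephosphorylates histone H2AX and acts as a transcriptional coactivator, rose from 5.69 ± 0.31 CPM to 18.8 ± 1.82 with CIC::DUX4 and 13.2 ± 3.16 with CIC::NUTM1 (log2 fold changes 1.73 ± 0.17 and 1.21 ± 0.17, edgeR adjusted p = 4.79e-08 and 7.96e-06). CDC14A, a phosphatase of cell division, rose from 27.5 ± 1.14 CPM to 50.2 ± 6.81 (0.87 ± 0.11, edgeR adjusted p = 1.77e-06) and 58.0 ± 7.66 (1.07 ± 0.11, 3.91e-08). Its relative CDC14B rose from 83.1 ± 5.66 CPM to 103 ± 8.5 (edgeR adjusted p = 0.00939) and 138 ± 11.1 (1.23e-07), and PTPDC1, which acts at cilia, from 13.2 ± 1.57 to 18.7 ± 2.18 (0.012) and 29.6 ± 3.22 (1.94e-07). Between the fusions 5 genes of this list were called higher with CIC::NUTM1 (26.3%, beside 4.97% of all tested genes) and 0 lower (beside 1.64%). CDC14B and PTPDC1 were among the 5 (edgeR adjusted p = 0.000871 and 0.00117).

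Of 15 docking proteins and adaptors that these enzymes bind or act on, 13 were tested. With CIC::DUX4, IRS2 rose (7.69% of the 13, beside 6.96% of all tested genes) and IRS4 and PAG1 fell (15.4%, beside 1.27%). With CIC::NUTM1, FRS2, IRS1 and IRS2 rose (23.1%, beside 11.5%) and IRS4 and PAG1 fell (15.4%, beside 3.83%). The 13 had median log2 fold changes of -0.01 and 0.04. IRS2, a substrate of the insulin receptor, rose from 12.5 ± 0.926 CPM to 18.1 ± 2.15 (edgeR adjusted p = 0.0141) and 31.9 ± 6.16 (6.19e-08). IRS4, the insulin receptor substrate that is abundant in cells of this line, fell from 1309.8 ± 67.6 CPM to 992 ± 68.3 (edgeR adjusted p = 0.0142) and 1027 ± 155 (0.0197). PAG1, which docks the SRC kinase inhibitor CSK, fell from 30.9 ± 1.63 CPM to 22.3 ± 1.79 (edgeR adjusted p = 0.00721) and 23.7 ± 3.49 (0.0231).

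Among 27 ligands and partners of the receptor-type proteins 19 were tested. With CIC::DUX4, SLITRK5, NTRK3, THBS1 and GPC1 rose (21.1%, beside 6.96% of all tested genes) and SLITRK3 fell (5.26%, beside 1.27%). With CIC::NUTM1, SLITRK5, NTRK3, IL1RAP, TRIO and THBS1 rose (26.3%, beside 11.5%); the median log2 fold change was 0.04 and 0.15. NTRK3 and THBS1 were below the filter level in all empty vector libraries and were tested through the fusion groups. THBS1 (thrombospondin, a ligand of PTPRJ) gave 16 reads in empty vector, and its pooled ratio was 3.88 (2.18 to 7.29) with CIC::DUX4 and 36.1 (22 to 63.8) with CIC::NUTM1. SLITRK5, a partner of PTPRD, rose from 93.3 ± 9.43 CPM to 117 ± 3.87 (edgeR adjusted p = 0.00363) and 111 ± 3.12 (0.0227). IL1RAP, another partner of PTPRD, rose with CIC::NUTM1 (log2 fold change 0.57, edgeR adjusted p = 0.00809) and was higher there than with CIC::DUX4 (0.52, 0.0304). NTRK3, a partner of PTPRS, gave 5 reads in empty vector, with pooled ratios of 6.69 (2.55 to 22.2; edgeR adjusted p = 0.0471) and 10.1 (4.0 to 32.8; edgeR adjusted p = 0.00541).

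All 7 genes listed as reported substrates of PTPN9 were tested. With each fusion 1 was called higher (14.3%, beside 6.96% of all tested genes with CIC::DUX4 and 11.5% with CIC::NUTM1). STAT3 rose with CIC::DUX4, from 84.4 ± 6.23 to 107 ± 10.2 CPM (edgeR adjusted p = 0.00373), and measured 96.2 ± 2.75 with CIC::NUTM1 (adjusted p = 0.113). KDR, the VEGF receptor, rose with CIC::NUTM1 (log2 fold change 3.01, edgeR adjusted p = 0.0274) from 0.521 to 4.45 ± 1.2 CPM and had a level of 3.14 ± 3.23 CPM with CIC::DUX4, where replicate 1 held 6.87 CPM (log2 fold change 2.56, adjusted p = 0.0876). KDR was below the filter level in at least 1 empty vector library and entered the test through the fusion groups. The other 5, among them NSF, EGFR and ERBB2, were not called in any comparison.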

How the data were processed

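PolyA-selected RNA was sequenced from 9 libraries of 293T cells, 3 per group; groups and replicates were read from the labels. The authors deposited unnormalized read counts for each Ensembl gene ID and a table of log2 CPM, which equals log2 CPM computed here with TMM and a prior count of 2. The submitters' processing notes name STAR 2.7.10b, R 4.2.2, edgeR 3.40.2 and GRCh38; the counting program, annotation and use of strand are not given in the sources used here, although the labels name a directional library kit. Transcripts of the fused genes were not analysed here.

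The test was that of edgeR 4.0.16, run in R 4.3.3 on counts filtered by group (17576 genes kept), scaled by TMM and fitted with a robust quasi-likelihood model over all 9 libraries, with Benjamini-Hochberg adjustment over all genes and a threshold of 0.05. The SE is that implied by the F statistic. Gene symbols matched 62622 of 62700 IDs. Positions and merged exon lengths are from GENCODE 29, promoters from RefSeq. Intervals of pooled read ratios are exact binomial at 95%, and like floors they cover counting error only, since reads are not independent molecules. Depth was 16970771 to 33655445 counts. The labels give separate transfection days but no separate sources of cells, so p-values measure the spread between these samples.

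The members, lists and rules were chosen with earlier results of these data known. Named are PTPN9, every member called in any comparison, and at most the 4 genes with the smallest adjusted p of each other list; further genes named to spell out small counts, and uncalled genes, were chosen after their values were seen. A blood marker is not reported here and was left out of that list's sum. On data simulated for CIC::DUX4 against empty vector (200 changed of 16957 genes), edgeR recovered 71% of 1.5-fold and 100% of 4-fold changes, with 2.84% false calls. Without 1 control library it recovered 57% of 1.5-fold changes, and DESeq2 gave 7.26% false calls. The simulation gave every gene the same spread, left out genes with few reads and held increases only. Its rates therefore do not carry over to genes at low levels or with a wider spread. Alternatives used DESeq2 1.42.0 and limma 3.58.1, and the closing section gives their effect.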

Additional observations from a re-analysis of the deposited data

How the results depend on the processing

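For PTPN9 every alternative kept the direction and the call in all 3 comparisons. Of 362 checks of the 25 single-gene results called in the reported fit, 314 kept both. A further 48 kept the direction without the call, 43 of them with a library left out, and 0 reversed. Such checks cannot show gained calls. PTPRS was called lower with CIC::NUTM1 by library totals and upper quartile factors. With CIC::DUX4, PTPRZ1 was called higher with no filter, and PTPRZ1 and PTPRM without CIC::DUX4 replicate 3. Between the fusions, PTPN13 was called without CIC::NUTM1 replicate 1, and PTPRZ1 with no filter or without CIC::DUX4 replicate 1. Asking for at least 10 counts in every library gave 2 phosphatases higher with CIC::DUX4 (6 in the reported fit) and 5 with CIC::NUTM1 (11 in the reported fit), since that filter removes the genes at low levels. With CIC::DUX4, 3 were lower with no filter and 3 in a fit of only the groups compared (1 in the reported fit), with PTPN14 and PTPRF added; the cause was not tested. With each library left out in turn, 4 to 8 were higher and 0 to 2 lower with CIC::DUX4, 8 to 9 higher and 1 to 3 lower with CIC::NUTM1, and 1 to 4 higher between the fusions. The labels do not say that equal replicate numbers share a day; deviations of same-numbered libraries correlated at -0.031 to 0.075, and 9 of 18 checks found a library closest to its own number, so the numbers were not taken as pairs. With the replicate number as a block, 5 were higher and 2 lower with CIC::DUX4 (PTPRF added), and the calls for PTPRC with CIC::DUX4 (adjusted p = 0.0506) and PTPRO with CIC::NUTM1 (0.0602) were not made; other calls of named phosphatases were. PTPRC with CIC::DUX4 was not called by limma-trend either (adjusted p = 0.098). Depth limits the genes under 1 CPM, where a few reads decide a level.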
